A study of Homo sapiens with 21 samples.

Results

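Trastuzumab was given to AU565 aggregates on either of 2 schedules, and the transcriptomes of these schedules are compared here across all genes. AU565 is an established human breast cancer cell line of epithelial type, labelled wild type, that carries many copies of ERBB2, the gene of the receptor HER2. Trastuzumab is a therapeutic antibody that binds HER2. The early group, called primed aggregates, came from monolayer cells that had 20 µg/ml of the antibody for 24 h and were then left to form aggregates for 96 h in a liquid overlay with 5% matrigel. The late group, called treated aggregates, formed for 96 h with no antibody and then had 50 µg/ml for 24 h, so that these cells spent 120 h as aggregates. Each group has 3 libraries, and together they are 6 of the 21 libraries of the series, chosen by their labelled treatment. Untreated aggregates (96 h) and aggregates given both exposures (120 h) serve as reference, as do untreated monolayers, monolayers exposed for 24 h, and primed monolayers left for 96 h after the same exposure, with 3 libraries each. Cells were kept in RPMI with 10% serum, RNA was extracted with TRIzol, and libraries were made with a TruSeq protocol. Dose, time since exposure and age of the aggregate all differ between the early and the late group, and no aggregates kept for 120 h without antibody were analysed here, so these cannot be told apart. The labels name no separate cultures for replicates, so p-values measure the spread between these samples, which may be technical.

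HER2 is a receptor tyrosine kinase without a known ligand of its own. It pairs with EGFR and HER3 and passes signals through the MAPK and PI3K pathways, which drive the cell cycle and restrain FOXO transcription factors. When that signal falls, FOXO factors can raise the transcription of receptors such as HER3, the insulin receptor and the IGF1 receptor. Cells packed in aggregates also meet gradients of oxygen and nutrients, to which the HIF and ATF4 factors respond.

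Levels are given as counts scaled to library size (CPM), and differences as the log2 fold change of treated minus primed aggregates from edgeR's quasi-likelihood test, with its 95% interval in places. A gene rose or fell when its Benjamini-Hochberg adjusted p was under 0.05, and rose always means higher in treated than in primed aggregates. Total counts were 17302804 to 23192612 per library in the 6 compared. Of 15969 genes tested, 5545 (34.7%) differed, of which 2804 (17.6%) rose and 2741 (17.2%) fell. Counts of genes that rose or fell in a list are to be set beside these 17.6% and 17.2%. The 3 replicates of one group lay wholly above those of the other for 7170 genes (44.9%), with treated above for 22.6% of all genes and below for 22.3%. Most differences were small. Among the 2282 genes averaging 100 CPM or more, 482 rose and 679 fell, with a median size of 0.25 on the log2 scale, and 4 of the called genes passed 2-fold. Among the 2549 genes under 1 CPM, 254 rose and 256 fell, and 502 of these passed 2-fold. The plot of difference against level shows this funnel.

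**Figure D1:**
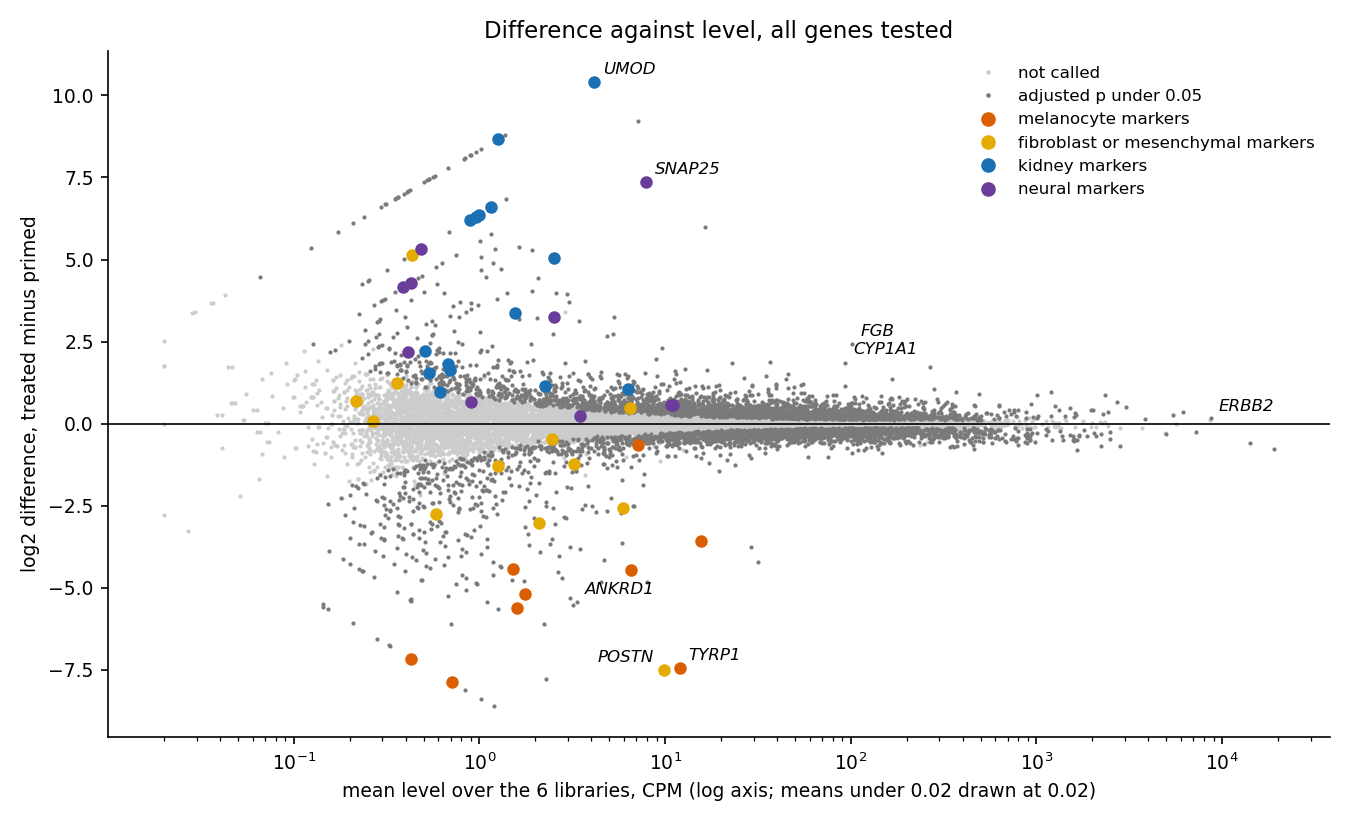
Each point is 1 of the 15969 genes tested, with its mean over the 6 libraries in CPM on a log axis and its log2 difference (treated minus primed) on the vertical axis; dark grey points passed and coloured points are markers of other tissues. Large differences lie mostly at low levels, where melanocyte and fibroblast markers fall and kidney and neural markers rise, while ERBB2 lies near 0 at the right.

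The 6 libraries carried the epithelial and HER2-amplified identity of the line, and also low levels of genes typical of other tissues that differed between the groups. The summed level of the epithelial markers EPCAM, KRT8, KRT18, KRT19 and CDH1 was 4892 to 5193 CPM in treated and 4341 to 4610 in primed aggregates, although CDH1 itself stood at only 0.301 to 0.642 and 0.888 to 3.05 CPM. ERBB2 and 4 neighbours in the amplicon (GRB7, MIEN1, STARD3 and PGAP3) summed to 11238 to 11566 and 10526 to 11155 CPM. In the edgeR fit as reported 0 of these 5 differed. Melanocyte markers summed to 8.43 to 10.4 CPM in treated against 67.5 to 110.4 in primed aggregates, and 9 of 9 tested fell. The melanin enzyme gene TYRP1 was at 0.0430 to 0.256 against 18.6 to 32.1 CPM, while TYR and PAX3 were at 0 in all treated libraries. Of 12 fibroblast markers 6 fell and 2 rose, with sums of 14.7 to 18.1 against 44.0 to 57.4 CPM. Kidney markers rose for 13 of 15 (26.0 to 53.03 against 7.10 to 7.83 CPM) and neural markers for 8 of 10 (50.5 to 58.7 against 17.8 to 24.7 CPM), led by the synaptic gene SNAP25 at 13.8 to 16.9 against 0 to 0.220 CPM. Aggregates given both exposures had melanocyte sums of 6.87 to 7.95 CPM and kidney sums of 19.5 to 55.9, although the kidney receptor LRP2 stood at 0.898 CPM or less there against 4.49 to 5.34 in treated aggregates. Untreated aggregates had kidney sums of 7.79 to 9.58 CPM, while their melanocyte sums of 25.3 to 34.7 lay below those of primed aggregates, and the muscle myosin MYH7 reached 29.9 CPM against 0.0592 or less in primed ones. The share of mitochondrial rRNA was 1.52 to 1.71% of counts in treated, 2.62 to 2.77% in primed and 2.13 to 2.36% in doubly exposed aggregates. In bulk RNA, fewer cells of a type and less RNA per cell cannot be told apart. These library features follow the 2 groups without exception among the 6 libraries, so they cannot be told apart from the exposure schedule, and no value within 1 set of libraries exists for this comparison.

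The difference also moved with the GC content of the transcripts. Over the 9343 genes of 10 CPM or more with a GC value, ordered into 10 equal classes, the median log2 difference went from −0.13 in the class of lowest GC content (7.17% rose, 40.7% fell) to 0.10 in that of the highest (31.7% rose, 9.52% fell). Its part in the result was not tested, but a fit with offsets for GC content was also run, chosen with the data in view. That fit gave 5641 calls over 15361 genes, of which 4681 were among the 5444 calls these genes have as reported and had the same direction.

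Primed monolayers against monolayers exposed for 24 h is a comparison without any of these 6 libraries that also sets higher kidney marker sums (21.9 to 43.4 CPM) against lower ones (6.29 to 8.62), with neural sums of 24.7 to 27.01 and 19.1 to 23.3. Melanocyte sums were 11.7 to 15.2 against 47.8 to 110.5 CPM and fibroblast sums 26.2 to 30.1 against 37.1 to 56.6. Hepatocyte sums (12.7 to 15.1 against 149.8 to 177.0) and endothelial sums (59.1 to 67.4 against 15.5 to 16.8) went opposite to the main comparison. The part of these transcripts in the shared calls was not tested. In this monolayer comparison 9958 genes (62.4%) differed, 5151 higher (32.3%) and 4807 lower (30.1%). Of the 2804 genes that rose in treated aggregates, 1617 (57.7%) were higher in primed monolayers and 502 (17.9%) lower. Those 1617 are 31.4% of the genes higher there. Of the 2741 that fell, 1482 (54.1%) were lower and 463 (16.9%) higher. For the 161 genes (1.01%) over 4-fold higher in treated aggregates, 109 were called the same way in the monolayers and 5 the opposite way, and for the 235 (1.47%) over 4-fold lower these counts were 192 and 2. Exposed against untreated monolayers had 3222 calls (20.2%), where the 2804 genes were higher for 530 (18.9%) and lower for 345 (12.3%), against 11.3% and 8.91% of all genes. The 2741 that fell were higher there for 289 (10.5%) and lower for 248 (9.05%).

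ERBB2, GRB7 and ERBB3 had small differences between early and late exposure and stood above untreated aggregates in both groups, while EGFR and scarce ligand genes differed more. ERBB2 (Entrez 2064, chr17:39688094-39728658 on RefSeq GRCh38.p14) had 9052, 9091 and 8832 CPM in the treated and 8177, 8590 and 8054 in the primed libraries. The treated libraries were all above the primed ones, yet the log2 difference of 0.12 (95% interval 0.01 to 0.23) had an edgeR adjusted p of 0.0753. DESeq2 gave 0.13 with an adjusted p of 0.0274 and limma voom 0.12 with 0.0297, so the call for ERBB2 depends on the tool. The edgeR fit with GC offsets gave a smaller difference of 0.07 (adjusted p = 0.185). Untreated aggregates averaged 6189 ± 426 CPM (SD, n = 3) of ERBB2, and aggregates with both exposures 8198 ± 310. GRB7, an adaptor whose gene lies beside ERBB2, had 1275, 1319 and 1288 CPM in treated and 1223, 1369 and 1328 in primed aggregates, which overlap. Its difference was −0.01 (interval −0.12 to 0.09), and both groups stood above the 778 ± 55.8 CPM of untreated aggregates. Over a longer list of 16 amplicon neighbours, 1 rose and 6 fell, against 17.6% and 17.2% of all genes. The fit with GC offsets had 0 rises and 8 falls in this list, with MIEN1 (−0.18) and PGAP3 (−0.14) among the falls. ERBB3, the gene of the HER2 partner HER3, had 524, 510 and 467 CPM in treated and 537, 580 and 536 in primed aggregates against 348 ± 3.47 in untreated ones. ERBB3 fell slightly (−0.14, edgeR adjusted p = 0.0285), and the edgeR adjusted p was 0.21 without treated replicate 3, 0.152 without primed replicate 2 and 0.0578 in a fit of only these 6 libraries. The fit with GC offsets kept the fall of ERBB3 (−0.15, edgeR adjusted p = 0.00418). The treated libraries of ERBB3 were all below the primed ones.

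**Figure D2:**
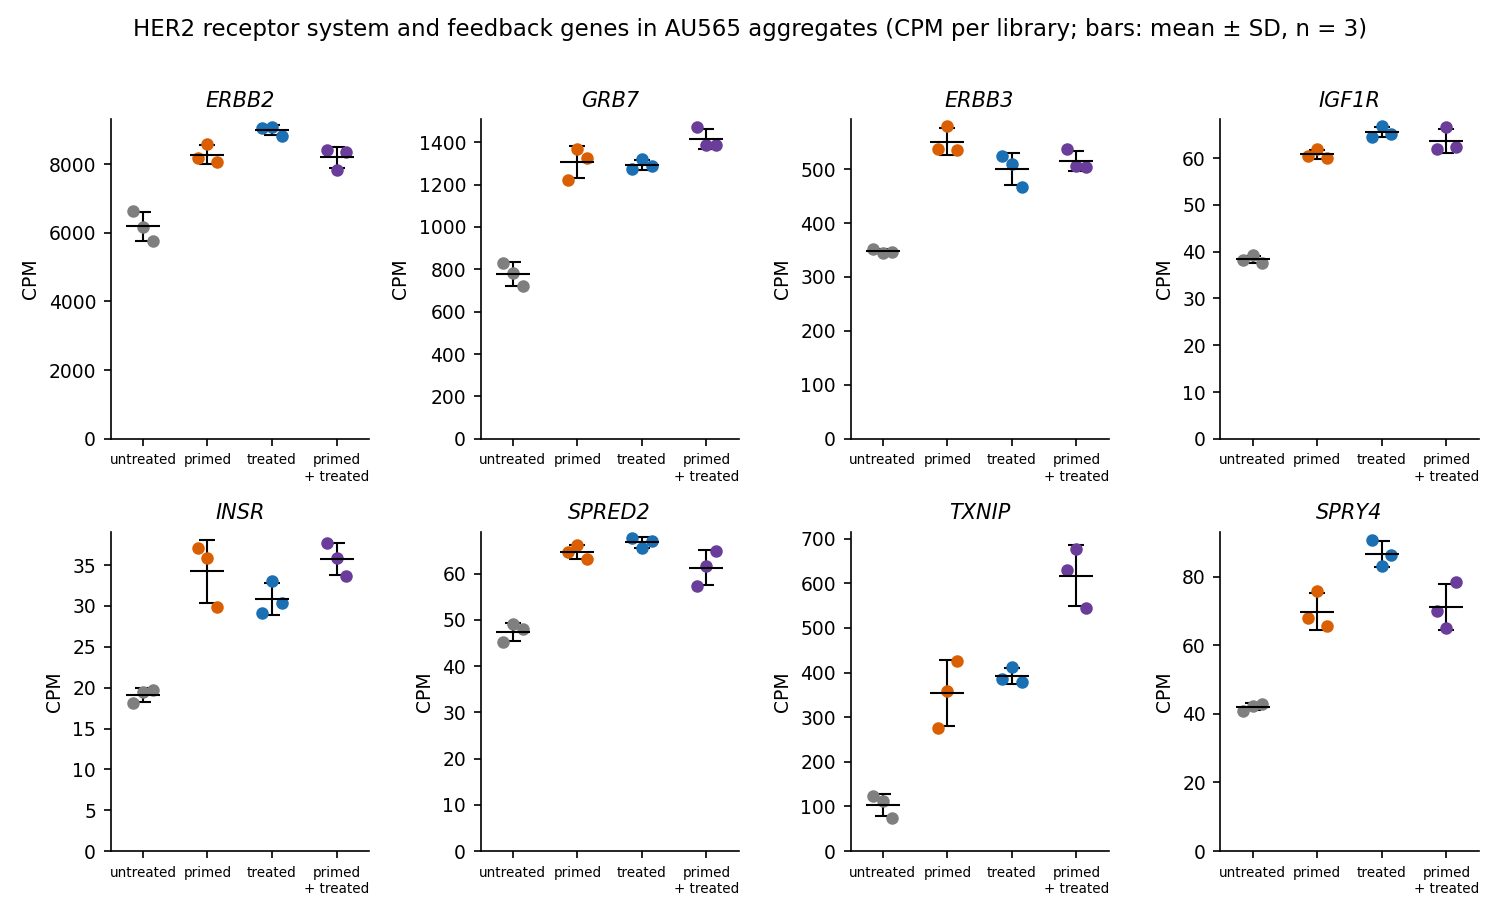
CPM of 8 HER2-linked genes in each library of the 4 aggregate groups, where points are libraries and bars the mean ± SD (n = 3). Primed and treated aggregates lie above untreated aggregates for ERBB2, GRB7, ERBB3, IGF1R, INSR, SPRED2, TXNIP and SPRY4. They lie close together except for SPRY4, which was higher in treated ones.

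EGFR departed from this pattern. It had 237, 240 and 225 CPM in treated and 289, 361 and 316 in primed aggregates, and the groups did not overlap (log2 −0.46, SE 0.060, edgeR adjusted p = 2.57e-07). Untreated aggregates had 314 ± 7.88 CPM of EGFR, near the primed level. Over the list of HER receptors, ligands and adaptors, 4 of 22 tested genes rose and 6 fell, against 17.6% and 17.2% of all genes, with a median of −0.00 against 0.00 over all genes. The brake on EGFR signalling ERRFI1 rose from 98.7 ± 7.89 to 128 ± 3.04 CPM (log2 0.37), and LRIG1, a negative regulator of HER receptors, from 118 ± 11.8 to 146 ± 2.94 (0.30). Ligand genes were scarce. NRG1, which binds HER3, stood at 0 to 0.0860 CPM in treated and 0.827 to 1.34 in primed aggregates, a low level that fell together with the melanocyte and fibroblast markers, whose part in it was not tested. TGFA fell, at 0.145 ± 0.0460 against 0.860 ± 0.544 CPM, and AREG at 1.72 ± 0.398 against 1.3 ± 0.429 did not pass (adjusted p = 0.314).

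Receptors under FOXO control also had small differences. IGF1R had 64.6, 66.8 and 65.3 CPM in treated against 60.4, 62.0 and 60.0 in primed aggregates, a difference of 0.11 (interval −0.00 to 0.22) that did not pass. INSR had 29.2, 33.0 and 30.4 against 37.0, 35.8 and 29.9 CPM (−0.15, interval −0.31 to 0.01), with overlapping groups. Without primed replicate 3 the INSR difference was −0.24 with an edgeR adjusted p of 0.0247. Untreated aggregates had 38.4 ± 0.790 CPM of IGF1R and 19.1 ± 0.855 of INSR, means below every library of either exposed group. TXNIP, a regulator of glucose uptake, averaged 392 ± 17.2 CPM in treated and 354 ± 74.6 in primed against 103 ± 25.6 in untreated aggregates. Its difference between schedules was 0.15 with a wide interval, −0.25 to 0.55. PIK3IP1, an inhibitor of PI3K, differed by 0.03 (interval −0.16 to 0.21). In the FOXO and PI3K list, 2 of 24 genes rose and 6 fell, and without primed replicate 2 the falls numbered 3. With GC offsets 4 rose and 6 fell. Among these falls, the CDK inhibitor CDKN1B had 89.2, 89.7 and 86.5 CPM in treated against 120, 126 and 125 in primed aggregates, and the groups did not overlap (log2 −0.48, SE 0.058, edgeR adjusted p = 5.72e-08).

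Of the MAPK feedback and immediate early genes, 7 of 25 rose and 6 fell, against 17.6% and 17.2% of all genes. The largest changes were among genes of low level. The early response factor EGR3 had 1.46, 1.38 and 1.37 CPM in treated against 0.0592, 0.276 and 0.0954 in primed aggregates (log2 3.24), and the ETS factor ETV5 0.473, 0.229 and 0.598 against 1.30, 1.76 and 2.24 (−2.02). PHLDA1 fell from 25.9 ± 4.48 to 13.4 ± 0.372 CPM (−0.95) and the feedback inhibitor SPRY2 from 3.13 ± 0.960 to 1.77 ± 0.315 (−0.83, edgeR adjusted p = 0.0224), while FOSB, an early response factor, rose by 0.84. The other members that passed differed less. The phosphatase gene DUSP4 (0.01, interval −0.10 to 0.12), the RAS-MAPK inhibitor SPRED2 (0.05, −0.07 to 0.16) and ETV4, another ETS factor (−0.11, −0.26 to 0.04) did not pass. SPRY4, another feedback inhibitor, rose from 67.9, 75.9 and 65.6 CPM in primed to 90.6, 83.0 and 86.2 in treated aggregates (log2 0.31, SE 0.062, edgeR adjusted p = 0.000152), and both groups exceeded the 42.0 ± 1.02 CPM of untreated aggregates. The early response factors split, since EGR1 rose (76.8 ± 3.38 against 57.9 ± 4.70 CPM) and FOS fell (17.6 ± 1.39 against 26.8 ± 2.33). CCND1, the G1 cyclin downstream of HER2, rose by 0.21 on the log2 scale (334 ± 9.89 against 289 ± 9.87 CPM). The plot of intervals sets these genes side by side.

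**Figure D3:**
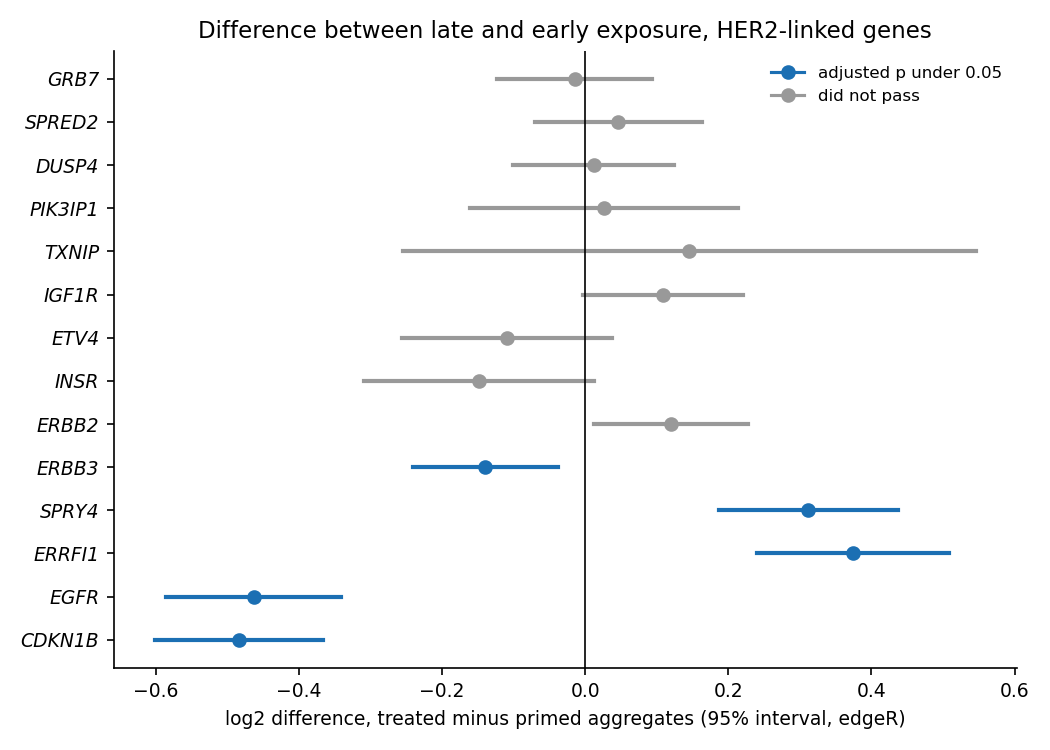
Log2 difference (treated minus primed aggregates) with its 95% interval for 14 HER2-linked genes; blue genes passed and grey ones did not. GRB7, SPRED2, DUSP4 and PIK3IP1 have intervals around 0, EGFR (−0.46) and CDKN1B (−0.48) lie lowest, and ERRFI1 (0.37) and SPRY4 (0.31) highest.

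Genes of mitosis were higher after late exposure. Of 32 genes of the G2/M list, 25 rose and 0 fell, with a median log2 difference of 0.41 against 0.00 for all genes. The proliferation marker MKI67 had 59.8, 56.1 and 46.8 CPM in treated and 32.4, 45.8 and 39.4 in primed aggregates (log2 0.47, SE 0.103, edgeR adjusted p = 0.00137), and its lowest treated library was just above its highest primed one. TOP2A, the topoisomerase of dividing cells, had 238, 248 and 217 against 137, 168 and 154 CPM (0.62). The mitotic factor FOXM1 (22.3 ± 1.21 against 14.5 ± 1.29 CPM), the mitotic kinase AURKA (52.5 ± 4.13 against 36.5 ± 2.58), the phosphatase CDC25B (174 ± 8.61 against 111 ± 7.55) and the kinesin KIF23 (19.9 ± 0.462 against 13.7 ± 1.13) rose by 0.52 to 0.65. Treated libraries lay above primed ones for each of these 6 genes. With offsets for GC content, 29 of the 32 rose and 0 fell.

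The rise was not seen in aggregates that had both exposures. Those had 30.9 ± 1.71 CPM of MKI67 and 11.8 ± 1.5 of FOXM1, near the 32.4 ± 3.26 and 13.8 ± 1.63 of untreated aggregates. Aggregates with both exposures against treated ones, a comparison at equal age and equal late dose in which mitochondrial rRNA and LRP2 also differed, had 1274 calls (7.98%), 508 higher (3.18%) and 766 lower (4.80%). In it, 29 of the 32 G2/M genes were lower with both exposures and 0 higher, with a median of −0.63, and in the primed against untreated aggregates (21.2% called, 11.5% higher) 6 were higher and 0 lower. Aggregates with both exposures against primed ones (14.9% of all genes higher and 14.8% lower) had 1 of the 32 higher and 15 lower, with a median of −0.28. These comparisons share the treated or primed libraries with the main one. Genes of G1/S and DNA replication moved less, since 10 of 32 rose and 2 fell (median 0.15), and without treated replicate 1 the rises numbered 6. E2F1, which turns on S-phase genes, rose from 5.88 ± 1.01 to 10.9 ± 0.859 CPM (0.88), and CDC6, a licensing factor, from 65.1 ± 4.32 to 83.2 ± 6.40 (0.35). The CDK inhibitor CDKN1A also rose, with 13.2, 15.7 and 12.6 CPM in treated against 6.04, 10.1 and 9.83 in primed aggregates.

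Promoters of G2/M genes often carry CCAAT boxes, bound by NF-Y, and the TTTGAA core of the cell cycle homology region, bound by the DREAM complex. The 250 bases before the start of 3 members that rose are shown (RefSeq, GRCh38.p14, read 5′ to 3′ on the gene's strand). These 3 were taken by smallest edgeR adjusted p from the risen members that hold both motifs. That each holds both was therefore fixed by the choice. CCAAT and TTTGAA on either strand are in capitals (ATTGG and TTCAAA on the other strand).
KIF23 (chr15:69414099-69414348, plus strand): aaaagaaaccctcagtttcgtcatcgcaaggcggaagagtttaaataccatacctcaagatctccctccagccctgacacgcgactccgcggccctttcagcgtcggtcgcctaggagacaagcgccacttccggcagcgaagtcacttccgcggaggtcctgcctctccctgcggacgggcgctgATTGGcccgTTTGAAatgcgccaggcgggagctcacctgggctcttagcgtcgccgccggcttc
CDC20 (chr1:43358731-43358980, plus strand): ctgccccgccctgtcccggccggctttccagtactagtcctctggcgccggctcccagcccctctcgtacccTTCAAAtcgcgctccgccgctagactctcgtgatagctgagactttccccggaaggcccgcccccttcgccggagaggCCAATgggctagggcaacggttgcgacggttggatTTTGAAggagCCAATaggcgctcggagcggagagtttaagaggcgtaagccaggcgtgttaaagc
TOP2A (chr17:40417897-40418146, minus strand): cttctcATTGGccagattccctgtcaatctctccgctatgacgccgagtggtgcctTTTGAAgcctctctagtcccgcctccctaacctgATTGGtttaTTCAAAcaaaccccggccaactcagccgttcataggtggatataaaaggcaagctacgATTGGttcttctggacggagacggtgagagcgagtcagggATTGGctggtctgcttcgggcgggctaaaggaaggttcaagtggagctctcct
KIF23 has 1 CCAAT and 1 TTTGAA, CDC20 has 2 of each, and TOP2A has 4 CCAAT and 2 TTTGAA. In windows from 250 bases before to 50 after the start, TTTGAA was present in 10.2% of the 12190 tested genes with an entry, CCAAT in 36.4%, and both in 4.13%. Of the 19 G2/M genes that rose and have an entry, 14 held TTTGAA, 16 CCAAT and 13 both. Over all 26 tested members with an entry these were 17, 20 and 15. A match describes the letters of the window and not binding in these cells.

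**Figure D4:**
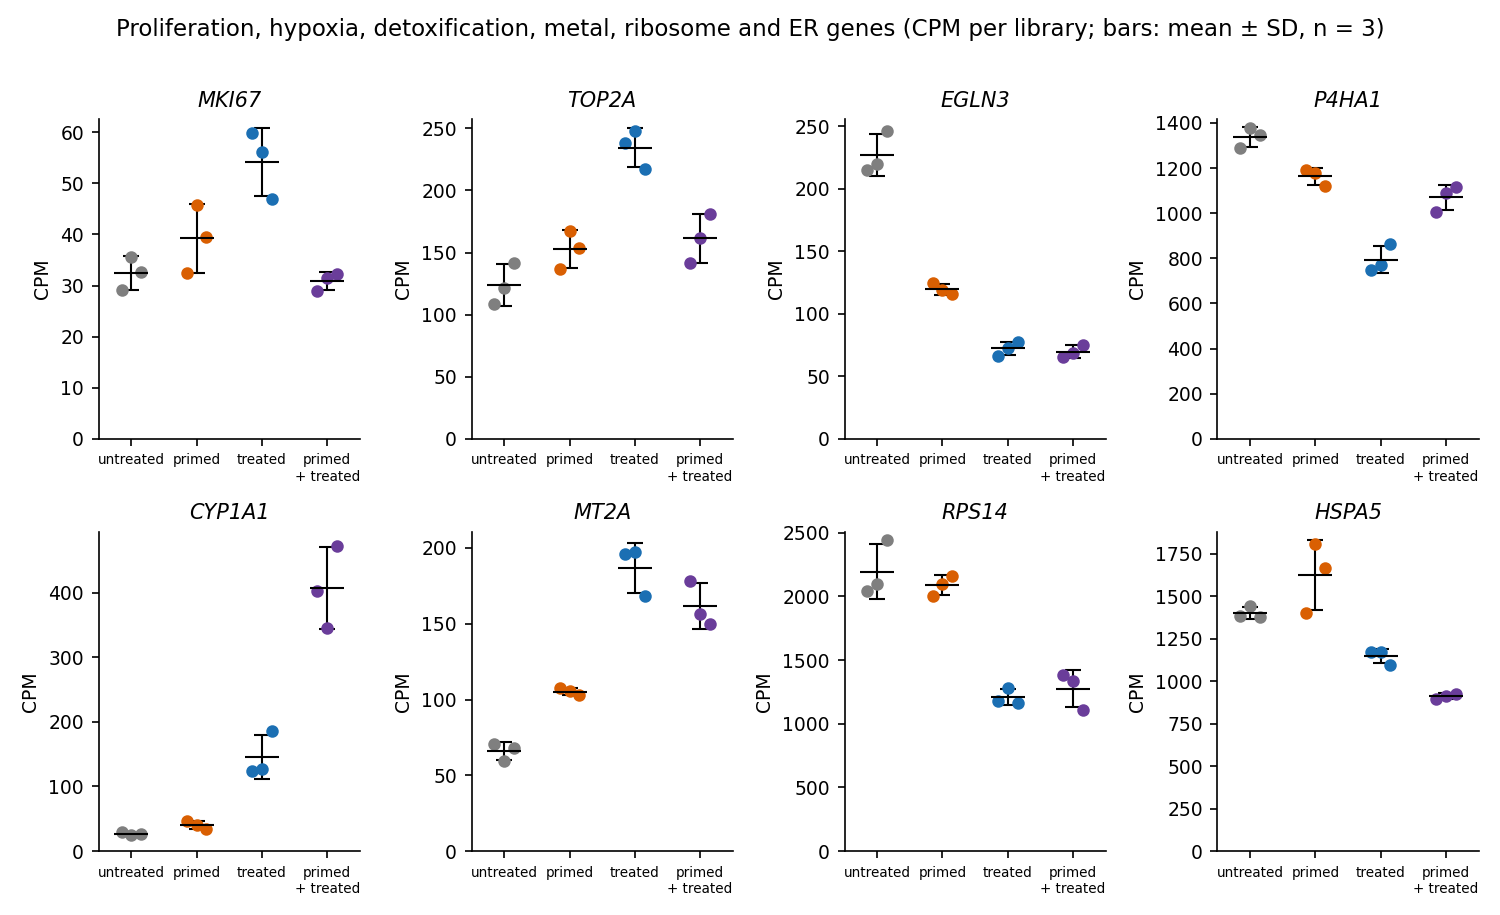
CPM of MKI67, TOP2A, EGLN3, P4HA1, CYP1A1, MT2A, RPS14 and HSPA5 in each library of the 4 aggregate groups, where points are libraries and bars the mean ± SD (n = 3). MKI67 peaks in treated aggregates at 54.2 CPM, EGLN3 is highest in untreated ones at 227 CPM, and CYP1A1 is highest after both exposures at 407 CPM.

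Genes that respond to low oxygen were lower after late exposure. Of 26 HIF targets 17 fell and 2 rose (median −0.37). EGLN3, an oxygen-sensing prolyl hydroxylase and itself a HIF target, had 66.5, 72.9 and 77.3 CPM in treated and 124, 119 and 115 in primed aggregates, with no overlap (log2 −0.73, SE 0.067, edgeR adjusted p = 3.09e-10). The histone demethylase KDM3A fell from 97.9 ± 9.92 to 58.8 ± 4.66 CPM, and P4HA1, a collagen prolyl hydroxylase, had 749, 771 and 863 against 1192, 1180 and 1120 CPM (−0.55). The peptide hormone gene ADM had 10.8, 11.8 and 8.97 against 17.5, 31.0 and 23.6 CPM (−1.20). VEGFA, an angiogenic factor, fell from 296 ± 15.6 to 231 ± 0.876 CPM (−0.36). CA12, a carbonic anhydrase, and P4HA2 were the 2 that rose, and CA9 did not pass (8.40 ± 2.75 against 7.65 ± 2.51 CPM). Both groups were below the untreated aggregates for EGLN3 (227 ± 16.8 CPM) and ADM (76.3 ± 6.71), and in primed against untreated aggregates, which also differed in melanocyte sums, 19 of the 26 were lower (9.66% of all genes) and 1 higher. Aggregates with both exposures had 69.7 ± 4.99 CPM of EGLN3, near the treated level. Against treated aggregates 4 of the 26 genes were higher and 0 lower, and against primed ones (29.8% called, 14.9% higher and 14.8% lower) 3 were higher and 13 lower.

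Glycolysis genes followed in part. Of 22, 8 fell and 3 rose (median −0.11), and 5 rose and 11 fell with GC offsets. Hexokinase HK2 had 424, 422 and 404 CPM in treated against 557, 691 and 587 in primed aggregates (−0.55), and the glucose transporter SLC2A1 222, 222 and 218 against 246, 326 and 275 (−0.36). Neither pair of groups overlapped. The enolase ENO1 (0.01, interval −0.10 to 0.12), the lactate dehydrogenase LDHA (0.09, −0.05 to 0.23) and the kinase PGK1 (0.13, 0.02 to 0.24, adjusted p = 0.0635) did not pass. LDHA (0.15) and PGK1 (0.19) were among the 5 that rose with GC offsets, while ENO1 (−0.04) did not pass there either. P4HA1 is shown as the most abundant of the HIF targets named here, with the HIF core ACGTG on either strand in capitals (CACGT contains it on the other strand).
P4HA1 (chr10:73096867-73097116, minus strand): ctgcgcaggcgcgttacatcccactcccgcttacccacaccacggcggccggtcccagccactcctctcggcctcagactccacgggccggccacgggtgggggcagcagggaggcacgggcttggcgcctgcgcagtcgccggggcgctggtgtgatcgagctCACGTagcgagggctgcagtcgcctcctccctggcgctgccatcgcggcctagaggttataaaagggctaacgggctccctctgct
It has 1 such match in these 250 bases, a number that 22.8% of such stretches reach. In the 300-base windows ACGTG was present in 26.1% of all genes with an entry. Among HIF targets with an entry, it was present in 12 of 21 tested and in 6 of the 12 that fell.

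Genes of amino acid supply and of the endoplasmic reticulum were lower as well. Of 22 ATF4-linked genes 13 fell and 3 rose (median −0.26). The asparagine synthetase ASNS had 177, 174 and 153 CPM in treated and 217, 280 and 297 in primed aggregates (−0.66), and PHGDH, which opens serine synthesis, 147, 148 and 132 against 212, 235 and 225 (−0.65). The tRNA exporter XPOT fell from 526 ± 27.3 to 357 ± 10.8 CPM. PYCR1, a proline synthesis enzyme outside the list, fell from 193 ± 21.2 to 103 ± 5.97 CPM (−0.91). CEBPB went the other way. This transcription factor gene had 220, 244 and 253 CPM in treated against 102, 76.9 and 99.8 in primed aggregates (1.36, SE 0.189, edgeR adjusted p = 5.55e-05), and aggregates with both exposures were at 238 ± 20.5. Of 20 genes of the unfolded protein response 11 fell and 1 rose (median −0.23). The chaperone HSPA5 had 1173, 1172 and 1097 CPM in treated against 1400, 1808 and 1665 in primed aggregates (−0.50), and ERN1, a sensor of unfolded protein, 42.1, 46.0 and 42.2 against 57.6, 81.0 and 70.8 (−0.69). The groups did not overlap for either gene. The response factor XBP1 did not pass (0.15, adjusted p = 0.073). For HSPA5 and HERPUD1 the treated levels were at or below the untreated ones, since untreated aggregates had 1401 ± 37.0 and 360 ± 12 CPM, and the treated ones 1147 ± 43.6 and 358 ± 9.96. With both exposures HSPA5 was at 910 ± 16.5 CPM, and against treated aggregates 13 of the 20 genes were lower and 0 higher.

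Cytosolic chaperones did not follow those of the reticulum, since 7 of 20 rose and 1 fell (median 0.14). HSPA8 had 1539, 1489 and 1435 CPM in treated against 1113, 899 and 1034 in primed aggregates (0.55), and the small heat shock protein HSPB1 rose from 708 ± 79.6 to 1303 ± 118 CPM (0.88). The stress-inducible HSPA1A did not pass (0.18, adjusted p = 0.215). Without treated replicate 2 the rises numbered 4.

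Ribosomal protein genes were lower after late exposure. Of 38, 27 fell and 1 rose (median −0.30). RPS14 had 1182, 1278 and 1164 CPM in treated against 2004, 2101 and 2162 in primed aggregates, with no overlap (log2 −0.79, SE 0.069, edgeR adjusted p = 4.84e-10), and RPS27 and RPL9 fell by 1.0 and 0.92. The ubiquitin fusion gene RPS27A was the 1 that rose (85.6 ± 4.64 against 67.8 ± 7.77 CPM). Primed aggregates stood near the untreated ones, where RPS14 averaged 2193 ± 217 CPM and 1 of the 38 genes fell and 0 rose. These genes share reads with many processed copies, so single values are uncertain. Of 27 genes of MYC-driven ribosome biogenesis and nucleotide synthesis, 14 fell and 1 rose. The rRNA methyltransferase FBL fell from 162 ± 3.47 to 109 ± 2.82 CPM (−0.57) and the nucleolar NPM1 from 752 ± 13.6 to 552 ± 23.4 (−0.45). The exception was ODC1, the first enzyme of polyamine synthesis, with 257, 251 and 244 against 151, 140 and 159 CPM (0.74).

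Detoxification and antioxidant genes were higher after late exposure. Of 22 NRF2-linked genes 16 rose and 2 fell (median 0.37), and of 17 genes of steroid and xenobiotic metabolism 11 rose and 1 fell (median 0.47), or 6 among genes averaging 10 CPM or more. UGT2B7 of the latter list is also a kidney marker, at 1.2 to 3.18 CPM in treated against 0 to 0.0551 in primed aggregates. Kidney markers rose for 13 of 15, and their part in this list was not tested. CYP1A1, an enzyme induced through the aryl hydrocarbon receptor, had 124, 127 and 186 CPM in treated and 46.4, 40.3 and 34.4 in primed aggregates, with no overlap (log2 1.86, SE 0.154, edgeR adjusted p = 2.31e-07). Untreated aggregates had 26.9 ± 1.67 CPM of CYP1A1 and those with both exposures 407 ± 63.2. CYP1B1 and CYP1A2, induced through the same receptor, rose by 0.83 and 1.92, while TIPARP, another of its targets, fell from 27.4 ± 1.13 to 20.5 ± 0.629 CPM. The aldo-keto reductase AKR1B10 had 29.5, 25.8 and 25.9 against 13.7, 12.6 and 9.83 CPM (1.18). Haem oxygenase HMOX1 (11.3 ± 1.38 against 5.80 ± 0.331 CPM) and the quinone reductase NQO1 (355 ± 9.31 against 257 ± 20.5) rose by 0.96 and 0.47. AKR1C1 and AKR1C2 rose by 1.54 and 1.85, but near-identical family members share their reads. SLC7A11, the cystine importer, fell from 58.1 ± 7.90 to 40.6 ± 0.945 CPM, and FTL, the light chain of ferritin, also fell. Primed aggregates lay below untreated ones for 11 of the 22 NRF2-linked genes and above for 1, and treated aggregates lay above untreated ones (36.7% called) for 10 and below for 3.

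Metallothioneins bind zinc and copper, and their genes are switched on by the metal-sensing factor MTF1. MT2A had 196, 197 and 168 CPM in treated and 107, 106 and 103 in primed against 66.0 ± 5.69 in untreated aggregates, so the groups did not overlap (log2 0.83, SE 0.099, edgeR adjusted p = 2.31e-06). MT1X rose from 15.5 ± 2.80 to 25.8 ± 2.80 CPM, and the zinc exporter SLC30A1, another MTF1 target, from 18 ± 1.07 to 24.5 ± 1.38. In all, 4 of 7 tested genes of the list rose and 1, the zinc importer SLC39A14, fell. Metallothionein genes are close copies and may share reads. Their promoters are shown with the metal response core TGCNCNC on either strand in capitals (GNGNGCA on the other strand).
MT2A (chr16:56608334-56608583, plus strand): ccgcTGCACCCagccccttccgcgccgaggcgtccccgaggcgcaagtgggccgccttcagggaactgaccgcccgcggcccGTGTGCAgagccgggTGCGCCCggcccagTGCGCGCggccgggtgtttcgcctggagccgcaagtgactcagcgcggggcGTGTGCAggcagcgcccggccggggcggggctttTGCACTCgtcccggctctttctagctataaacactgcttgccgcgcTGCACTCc
MT1X (chr16:56682220-56682469, plus strand): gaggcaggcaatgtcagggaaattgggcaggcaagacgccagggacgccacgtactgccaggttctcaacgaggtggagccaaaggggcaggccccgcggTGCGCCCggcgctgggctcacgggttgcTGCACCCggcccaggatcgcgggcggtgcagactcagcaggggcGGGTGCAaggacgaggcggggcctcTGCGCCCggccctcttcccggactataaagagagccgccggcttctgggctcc
MT2A has 7 matches, a number reached by 0.0738% of such stretches, and MT1X has 4, reached by 1.99%. The core was present in 63.0% of all 300-base windows, and in those of 3 of the 3 genes of the list that rose and have an entry.

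Luminal and cornified envelope genes were higher after late exposure, while genes of epithelial junctions were not. Of 25 genes of luminal differentiation and mammary secretion 13 rose and 1 fell (median 0.18). The mucin MUC1 had 409, 438 and 367 CPM in treated against 253, 260 and 260 in primed aggregates (0.65), the secretory disulfide isomerase AGR2 437, 425 and 400 against 278, 283 and 276 (0.59), and the luminal keratin KRT8 1549, 1488 and 1504 against 1238, 1096 and 1076 (0.41). No pair of groups overlapped. The epithelial factor ELF3 was the 1 that fell (538 ± 18 against 640 ± 11.3 CPM). Of 16 genes of basal keratins and the cornified envelope 9 rose and 0 fell (median 0.67), or 4 among genes averaging 10 CPM or more. The calcium-binding alarmins S100A8 (67.2 ± 10.5 against 31.3 ± 7.59 CPM) and S100A9 (489 ± 79.1 against 252 ± 47.5) had sizeable levels, while basal keratins such as KRT17 (1.19 ± 0.308 against 0.546 ± 0.166) were scarce. Of 23 genes of epithelial junctions 4 rose and 8 fell (median −0.03), or 6 and 9 with GC offsets. Of 19 Notch and stem cell genes 10 rose and 1 fell (median 0.19). The Notch target HES1 rose from 59.9 ± 3.62 to 82.3 ± 2.27 CPM, the aldehyde dehydrogenase ALDH1A1 from 5.90 ± 1.73 to 13.6 ± 0.953 and PROM1 from 40.2 ± 3.32 to 58.0 ± 2.27, whereas HEY1 fell. Integrin, laminin and matrix receptor genes were mixed, with 7 of 30 that rose and 5 that fell, or 8 and 5 with GC offsets. ITGB4, an integrin of hemidesmosomes, had 74.3, 76.6 and 66.6 CPM in treated against 36.3, 48.6 and 45.3 in primed aggregates (0.74). In the fit with GC offsets ITGB4 rose by 0.65, while ITGA6 and COL17A1 of the same list fell by 1.38 and 0.62.

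Genes of inflammation and immune recognition were mixed. Of 20 NF-κB targets 9 rose and 3 fell (median 0.21), among them the adhesion molecule ICAM1 (15.8 ± 2.68 against 9.80 ± 1.06 CPM) and TNFAIP2 (84.1 ± 3.85 against 55.8 ± 2.07). Of 26 interferon genes 9 fell and 5 rose (median −0.27). The falls included scarce genes such as IFIT1 (0.730 ± 0.0832 against 3.82 ± 0.815 CPM) and MX1 (3.05 ± 0.0577 against 7.31 ± 0.281), and among genes averaging 10 CPM or more 2 fell. The rises included IFI6 and IFITM3, which with GC offsets were higher by 0.45 and 0.40 on the log2 scale. Antigen presentation hardly moved, with 2 of 17 rising and 1 falling, and B2M, the shared light chain of class I molecules, differed by −0.04 (interval −0.15 to 0.07). Some genes of the list are near copies that share reads, and their calls are uncertain. The complement regulator CD55, which shields cells from antibody-directed complement, had 242, 242 and 237 CPM in treated against 308, 314 and 350 in primed aggregates (−0.43, SE 0.054, edgeR adjusted p = 1.07e-07), where untreated aggregates had 244 ± 6.13. The regulator CD59 did not pass (−0.06, interval −0.16 to 0.03), nor did the checkpoint ligand CD274 (1.40 ± 0.210 against 2.05 ± 0.275 CPM, adjusted p = 0.0892). The plot of list shares gives all 36 lists.

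**Figure D5:**
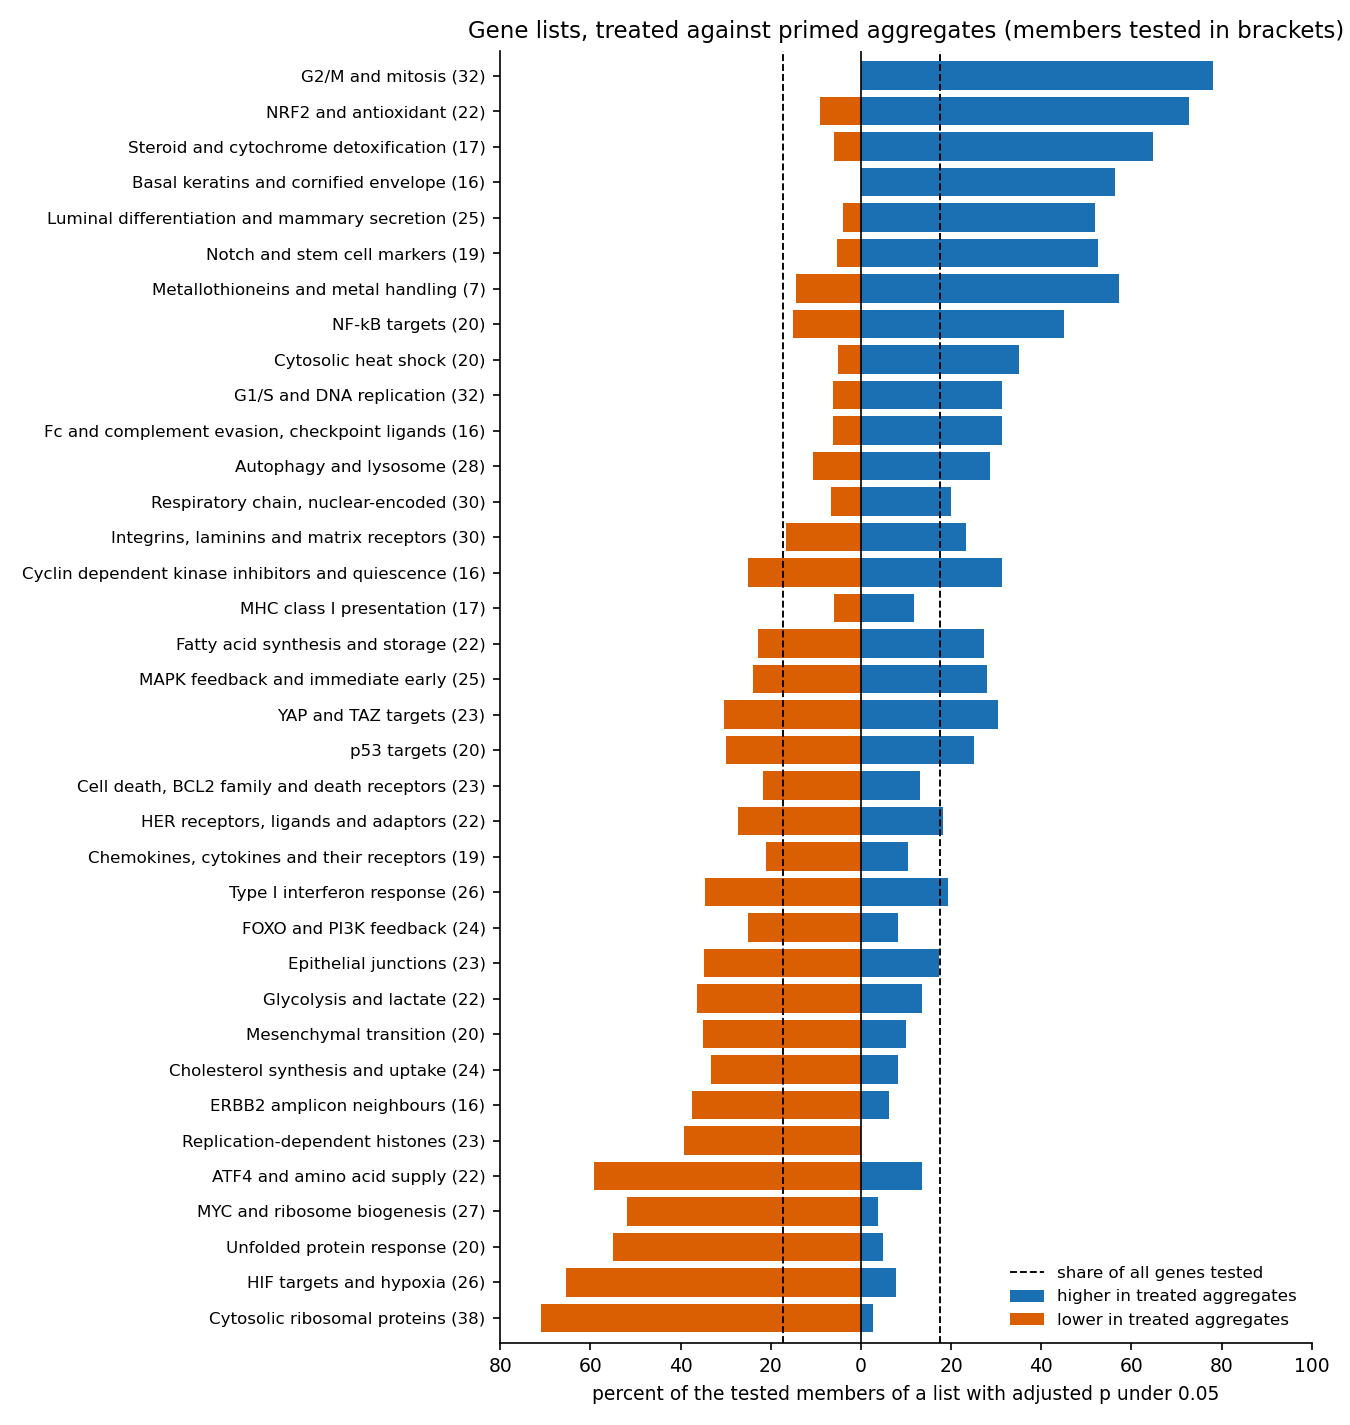
Percent of the tested members of each of 36 gene lists that rose (blue, right) or fell (orange, left), with dashed lines at the shares of all genes tested, 17.6% and 17.2%. G2/M and NRF2 genes reach furthest to the right with 25 of 32 and 16 of 22, and ribosomal proteins and HIF targets furthest to the left with 27 of 38 and 17 of 26.

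The largest differences among genes averaging 20 CPM or more over the 6 libraries mixed secreted, metabolic and structural genes. FGB, a fibrinogen chain, led the rises. It had 177, 183 and 154 CPM in treated against 40.01, 28.2 and 27.9 in primed aggregates (2.43, SE 0.119, edgeR adjusted p = 5.54e-11), and FGG, another chain, 418, 414 and 391 against 138, 118 and 116 (1.72). Of 5 hepatocyte markers tested, FGB among them, 4 rose and 0 fell, with sums over the list of 212 to 242 CPM in treated against 62.4 to 74.0 in primed aggregates. FGA, the third fibrinogen chain, had 8.20 to 11.2 against 0.859 to 1.30 CPM and APOB, a lipoprotein, 1.2 to 1.51 against 0.237 to 0.661, while albumin (ALB) stood at 0.171 CPM or less in all 6 libraries. The part of hepatocyte transcripts in these rises was not tested. In primed against exposed monolayers FGB had a log2 difference of −4.86, the opposite direction. CHCHD10, a mitochondrial protein, LRRC26, a potassium channel subunit, the linker histone H1-10, the phosphatase inhibitor PPP1R14B and the antisense gene MMP24OS rose by 1.87, 1.5, 1.36, 1.21 and 1.40. Their transcripts are rich in GC, at 68.4, 74.7, 68.6, 68.0 and 66.2%, as is that of CEBPB at 66.2%. With GC offsets they rose by 1.69, 1.18, 1.18, 1.04 and 1.27, and CEBPB by 1.22. MMP24OS overlaps a gene on the other strand and the strand setting of the counting is not given in the sources used here. It had an edgeR adjusted p of 0.06 and 0.0633 without primed replicates 1 and 2.

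The falls at this level were led by genes of the cytoskeleton. VIM, the mesenchymal filament vimentin, had 3.78, 2.89 and 3.12 CPM in treated against 36.8, 62.7 and 80.6 in primed aggregates (−4.20, SE 0.463, edgeR adjusted p = 5.81e-06), and TMSB4X, an actin-binding peptide, 4.86, 3.35 and 3.84 against 39.1, 52.4 and 69.8 (−3.74). Both moved with the melanocyte markers, of which 9 of 9 fell, and with 6 of 12 fibroblast markers such as POSTN (0.0854 to 0.138 against 18.3 to 22.4 CPM), while the fibroblast markers DCN and COL1A1 rose. VIM stood at 20.6 ± 7.05 CPM in untreated aggregates, below the primed ones, as did the melanocyte sums. The part of those transcripts in VIM and TMSB4X was not tested. SERPINI1, a protease inhibitor, fell by 1.24, the lipid phosphatase gene PLPP5 by 1.11, the antisense gene EPB41L4A-AS1 by 1.04, and MACC1, a regulator of MET transcription, by 1.02 (49.5 ± 5.02 against 101 ± 9.91 CPM). FUT11, a fucosyltransferase, fell from 37.5 ± 3.36 to 19.4 ± 0.813 CPM. In aggregates with both exposures, SERPINI1 (14.0 ± 1.52 CPM), MACC1 (42.7 ± 0.766) and FUT11 (19.1 ± 0.721) had values close to the treated group.

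The largest differences of all, without regard to level, lay in genes typical of other tissues. UMOD, a kidney tubule protein, had 10.8, 0.825 and 13.4 CPM in treated libraries and 0 in all primed ones, at least 159-fold higher against a floor of 3 counts over the 3 primed libraries. Its call was lost in 9 alternatives, with adjusted p from 0.0515 to 0.213. Against the same floor the immunoglobulin gene IGKC was at least 51.0-fold higher, the acyl-CoA synthetases ACSM2A and ACSM2B, which are near copies, at least 47.4-fold and 38.4-fold, and the chemokine CXCL14 at least 46.9-fold. IGKC had 5.29, 2.61 and 0.299 CPM in the treated libraries and CXCL14 4.69, 1.15 and 1.62, and without treated replicate 1 their bounds were 26.4-fold and 26.0-fold. Without primed replicate 3, which raises the floor, the bounds of UMOD, IGKC, ACSM2A, ACSM2B and CXCL14 were 99.2, 31.9, 29.7, 24.0 and 29.3-fold. The call of IGKC was lost without the 6 libraries of other groups that carry the cardiac myosin gene MYH7 (adjusted p = 0.052). Lower by bounds of the same kind over the treated libraries were ISL1, a neuronal and cardiac transcription factor (at least 54.6-fold), the sarcoglycan SGCD (46.9-fold), LRRN4CL (39.6-fold) and the neural crest factor PAX3 (33.0-fold). These bounds were 36.1, 31.0, 26.1 and 21.8-fold without treated replicate 1 and 36.0, 30.9, 26.0 and 21.7-fold without treated replicate 3. HTR2B, a serotonin receptor, and POSTN, a matrix protein, were the others. Each floor covers counting error only, and the part of tissue transcripts in these genes was not tested.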

How the data were processed

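RNA of 21 AU565 samples was sequenced, and 1 table of read counts per gene was deposited by the authors. The submitters' processing notes name featureCounts, limma and hg38 without versions or roles; aligner and strand setting are not given in the sources used here. Columns were matched to samples by title, and those of the primed aggregates, whose titles lack the word primed, by elimination. The file lists 16553 genes, 174 without a symbol, none with a maximum under 0.501 CPM. Positions and promoters come from RefSeq GRCh38.p14.

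Counts were tested with edgeR 4.0.16 (R 4.3.3) using TMM, filterByExpr by group, 1 mean for each of 7 groups (14 residual degrees of freedom), and robust quasi-likelihood fits. Tests were two-sided, with p adjusted over the 15969 genes kept in each of 7 comparisons. The filter removed 584 genes with 0.0116% of counts. Replicate pairs of the 6 libraries differed by 2.88 to 8.03 times counting variance, with a common biological variation of 5.98% between replicates. The steps were first tested on simulated data. The GC content is that of the longest coding transcript.

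Members and lists were chosen with earlier results of these data known, so no list count is independent evidence. Named genes follow a rule over called genes whose replicates do not overlap: the 6 largest rises and falls with 1 CPM or more in a group, the 10 largest each way averaging 20 CPM or more, up to 4 genes of smallest p from each list, and 12 genes in any case. Pseudogenes, clones and genes with LOC, MIR or LINC symbols are left out. Other named members of lists, marker genes and the promoters shown were chosen after their values were seen. Some genes taken by the rule are not described. Alternatives were DESeq2 1.42.0, limma voom 3.58.1, RLE size factors, no filter, only the compared groups, the replicate number as a block and leaving out each replicate. With the data in view, 3 more were added, namely a fit of genes that average 10 CPM or more, one without the 6 libraries holding MYH7, and one with GC offsets from a lowess of span 0.3. A few genes that the naming rule or the lists include are not reported here by name, and the counts over lists include them.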

Additional observations from a re-analysis of the deposited data

How the results depend on the processing

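The counts of genes that differed, rose or fell between treated and primed aggregates stayed within 1.5 times the reported counts under each alternative run. Leaving out 1 library gave 4474 to 5420 calls, 2291 to 2686 rises and 2183 to 2734 falls. Replicate numbers did not pair the samples (correlations of −0.04, 0.21 and −0.26 between same-numbered libraries), and with the replicate number as a block 5474 genes differed, 2771 up and 2703 down. In a fit of only the groups compared, primed against untreated aggregates had 2177 calls (1210 higher, 967 lower) in place of 3379 (1836 and 1543). Aggregates with both exposures against treated ones had 2050 (892 and 1158) in place of 1274 (508 and 766), and the cause was not tested. The difference of GRB7, which passed in no fit, was −0.01 as reported and ranged from −0.063 to 0.016 when 1 library was left out, above 0 without primed replicate 2. With GC offsets the rises of glycolysis genes numbered 5 in place of 3, the falls of autophagy and lysosome genes 5 in place of 3 and those of fatty acid genes 3 in place of 5. IL6ST, a cytokine receptor that fell by 0.21, had −0.07 with GC offsets. NDUFA9, PPP1R1B and IRS1 lost their calls without 1 library each, primed replicate 3, treated replicate 3 and primed replicate 2. The median log2 difference of all genes moved by under 0.1 with each scaling tried. Depth limits genes under 1 CPM, where a difference rests on few counts.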

Other observations

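Lysosomal, mitochondrial and lipid genes were not described above. Their counts stand against 17.6% of all genes that rose and 17.2% that fell. Of 28 autophagy and lysosome genes 8 rose and 3 fell, and the membrane protein LAMP1 had 300.3, 291 and 299.6 CPM in treated against 200.1, 177 and 174 in primed aggregates (log2 0.69, SE 0.053, edgeR adjusted p = 6.8e-12). Of 30 nuclear genes of the respiratory chain 6 rose and 2 fell, with 3 rises without treated replicate 1, primed replicate 2 or primed replicate 3, and 10 with GC offsets. Cholesterol synthesis and uptake genes fell for 8 of 24 and rose for 2. The synthase HMGCS1 fell from 68.4 to 56.2. Among fatty acid genes 6 of 22 rose and 5 fell, led by the desaturases FADS1 (0.367 to 0.769 against 2.72 to 5.57 CPM, −3.07) and FADS2 (0.825 to 1.49 against 2.96 to 5.95, −1.97), which fell. Both desaturases have low levels and fell together with the melanocyte markers, whose part in this was not tested. The synthase FASN rose by 0.26, or 0.14 with GC offsets. The BCL2 family member BOK had 16.2, 19.6 and 18.8 CPM in treated against 8.40, 9.04 and 8.30 in primed aggregates (1.08), within a cell death list in which 3 of 23 rose and 5 fell.

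Of 23 replication-dependent histone genes 9 fell and 0 rose, although genes of the cell cycle rose. Among those averaging 10 CPM or more, 2 fell. H2BC12 fell from 75.9 to 57.2 CPM and H2BC5 from 15.2 to 10.1. Histone genes are near copies, so reads can be shared between them and single values are uncertain.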
